A study of Saccharomyces cerevisiae with 16 samples.

Results

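The genes for ergosterol synthesis and sterol uptake were followed across 8 conditions of *Saccharomyces cerevisiae*. The group comprised 34 named genes, each measured by 1 probe set, of 5449 yeast genes with a probe set on the Affymetrix Yeast Genome array. Probe sets were taken from the platform annotation by gene symbol, and all 34 were found and tested. Of these genes, 25 encode enzymes and helper proteins of synthesis, 9 of them in the steps from acetyl-CoA over mevalonate to farnesyl diphosphate, 3 in the formation of squalene and lanosterol, 8 in the demethylation of lanosterol and 5 in the late steps. A further 3 encode transcriptional regulators, 2 encode sterol importers, 2 encode enzymes that make steryl esters, and 2 encode sterol-binding proteins.

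Ergosterol is the main sterol of yeast membranes and takes the place that cholesterol has in animal cells. Its synthesis needs molecular oxygen and heme, so cells without oxygen stop making it and import sterol instead. Upc2 and Ecm22 are related activators that bind sterol and switch on many *ERG* genes when sterol runs short, surplus sterol is stored as esters by Are1 and Are2, and the ABC transporters Aus1 and Pdr11 bring in sterol when oxygen is missing.

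S288c was represented by BY4742 (*MATα his3Δ1 leu2Δ0 lys2Δ0* and deleted for *URA3*, with an allele number that runs from *ura3Δ0* to *ura3Δ3* over the labels of the 4 arrays), and Σ1278b by a *MATα* strain with *ura3-52* and with *hisG* insertions that delete *HIS3*, *LEU2* and *TRP1*. Each was grown with the empty multicopy vector YEpLac195 (wild type) or with the same vector carrying *MSS11*, an activator of *FLO* adhesin genes (2μ-*MSS11*), and Σ1278b was also measured with *MSS11* deleted (*mss11*). Another set of Σ1278b arrays comprised a further wild type, called wild type b, and strains titled *FLO8* overexpressed and *flo8* deleted, whose plasmid labels contradict the titles and which are therefore named by title. All 16 arrays, 2 per condition from separate cultures, were from cells grown in 5 ml of synthetic medium with 2% glucose at 30° and, by the labels, harvested at entry into stationary phase. S288c carries the nonsense allele *flo8-1* and, as is known of this lineage, a transposon insertion in the heme-responsive activator gene *HAP1*. Both differences go with every strain comparison below, and their part in it was not tested.

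The data are log2 intensities, in which a difference of 1 is a doubling. The *MSS11* probe set read 7.5 and 8.34 in the Σ1278b wild type, 3.01 and 3.03 in *mss11*, 13.50 and 13.58 in Σ1278b 2μ-*MSS11*, 8.87 on both arrays of S288c and 13.27 and 12.37 in S288c 2μ-*MSS11*, so it followed the labels. The *FLO8* probe set read 11.59 and 11.63 in wild type b and was higher in the arrays titled *FLO8* overexpressed (15.71 and 12.90), while those titled *flo8* deleted kept a signal of 11.06 and 11.16. The arrays fell into 3 sets by their lowest intensity, namely the 6 of Σ1278b with its *MSS11* changes, the 4 of S288c and the 6 with wild type b, and whether these sets were normalized together is not stated. Although both strains are labelled *MATα*, the summed intensity of 7 genes specific to **a** cells was 31333 to 33445 in S288c wild type, 13253 and 330 in S288c 2μ-*MSS11* and 122 to 157 in the Σ1278b wild type. The S288c 2μ-*MSS11* arrays also differed most from each other, by more than 1 in 29.3% of all probe sets and in 3 of the sterol genes (against 0 sterol genes in each of the other 7 conditions). The root mean square SD of the sterol genes was 0.436 in that condition and 0.0686 to 0.154 in the other conditions.

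**Figure D1:**
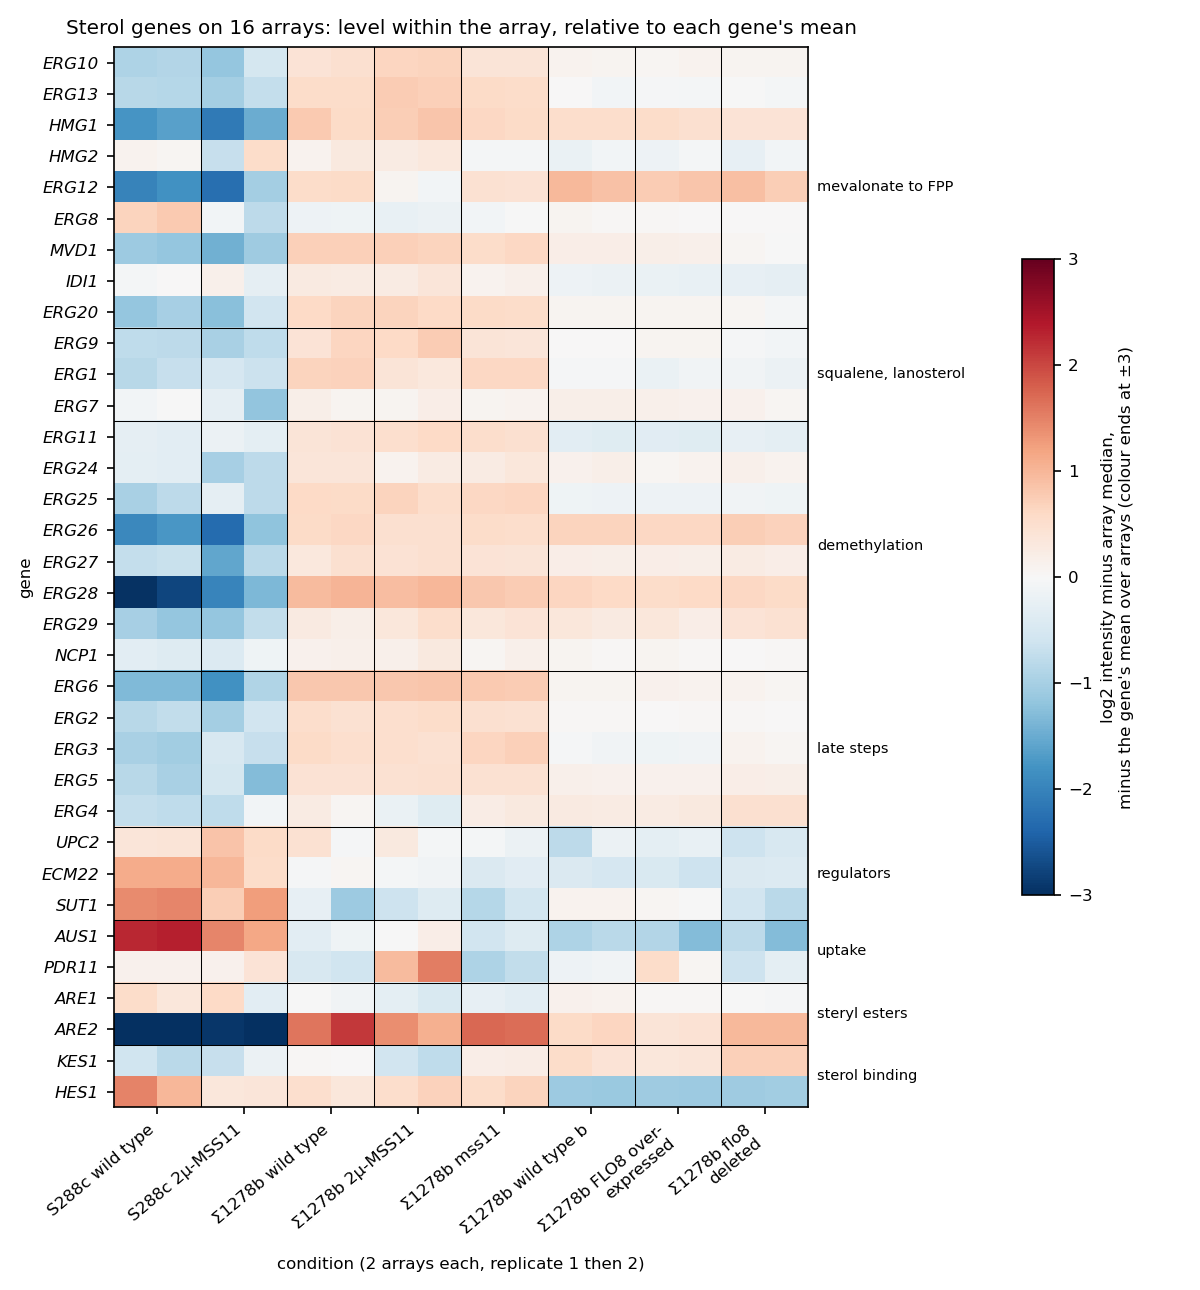
Heat map of the 34 sterol genes (rows, grouped by role) on the 16 arrays (columns, 2 per condition). Colour is log2 intensity minus the array's median over all tested probe sets, less the gene's mean over arrays, and ends at ±3. Most synthesis genes are blue on the 4 S288c arrays and pale red on the 6 arrays of Σ1278b with its *MSS11* changes, whereas *AUS1*, *SUT1* and *ECM22* show the opposite.

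Between the wild types, the genes of ergosterol synthesis were lower in S288c than in Σ1278b along nearly the whole pathway, while the importers and 2 of the 3 regulators were higher. Of the importer genes, *AUS1* kept its call in all 15 other settings, whereas *PDR11* lost it in 3 and turned in direction in 1. Of the 25 synthesis genes 21 were lower (84%), 1 was higher (*ERG8*) and 3 did not pass the test (*HMG2*, *IDI1* and *ERG7*). In all, 23 sterol genes were lower and 7 higher (limma, Benjamini-Hochberg adjusted over 5498 probe sets). The strains differed widely, since 59.8% of all tested probe sets passed, 28.1% as lower and 31.8% as higher in S288c. The median difference was -1.21 for the synthesis genes and 0.02 for all probe sets.

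In the steps to farnesyl diphosphate, which also feed dolichol, heme A and ubiquinone, 6 of 9 genes were lower in S288c. *HMG1*, encoding the main HMG-CoA reductase and thus the classical control point of the pathway, read 11.13 and 11.28 in S288c and 13.54 and 13.40 in Σ1278b. The difference of -2.26 ± 0.17 (SE, n = 2 arrays per strain; adjusted p = 4.96e-06) is a 4.80-fold lower intensity. Its isoenzyme gene *HMG2*, by contrast, read 10.86 and 10.83 in S288c and 10.72 and 10.98 in Σ1278b, with overlapping arrays and a difference of -0.01 (95% interval -0.69 to 0.67). *ERG12*, encoding mevalonate kinase, read 9.82 and 10.02 against 12.22 and 12.33, a difference of -2.35 ± 0.30 (adjusted p = 0.000147). All S288c arrays lay below all Σ1278b arrays for both *HMG1* and *ERG12*, which held for 41.4% of all probe sets. *ERG8*, encoding the next kinase, was the one synthesis gene higher in S288c, at 13.90 and 14.02 against 12.93 and 13.03 (0.98 ± 0.18, adjusted p = 0.00107). The decarboxylase gene *MVD1* (-1.72), the farnesyl diphosphate synthase gene *ERG20* (-1.59), the HMG-CoA synthase gene *ERG13* (-1.26) and the thiolase gene *ERG10* (-1.22) were lower as well. The isomerase gene *IDI1* did not pass, with a difference of -0.16 (95% interval -0.42 to 0.10).

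At the branch to sterols, the squalene epoxidase gene *ERG1* (-1.32) and the squalene synthase gene *ERG9* (-1.16) were lower in S288c. The lanosterol synthase gene *ERG7* gave -0.06 (95% interval -0.55 to 0.44), with arrays of 12.63 and 12.72 against 12.74 and 12.72.

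All 8 genes of the demethylation steps were lower in S288c, and the size ranged from -0.38 to -3.72. The largest was *ERG28*, which encodes the membrane scaffold that holds the demethylating enzymes together. It read 9.84 and 10.08 in S288c and 13.60 and 13.75 in Σ1278b, a difference of -3.72 ± 0.17 (adjusted p = 2.23e-07) or 13.2-fold. *ERG26*, encoding the decarboxylating dehydrogenase of that complex, read 10.68 and 10.88 against 13.02 and 13.14 (-2.30 ± 0.27, adjusted p = 8.2e-05). The oxidase gene *ERG25* (-1.35), *ERG29*, whose product is needed at the oxidase step (-1.17), and the ketoreductase gene *ERG27* (-0.96) lay between. Smaller differences were seen for *ERG11*, encoding the demethylase that azole drugs inhibit (-0.58), the reductase gene *ERG24* (-0.56) and *NCP1*, encoding the reductase that passes electrons to Erg11 (-0.38).

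All 5 late genes were lower in S288c. *ERG6*, encoding the sterol methyltransferase that sets ergosterol apart from cholesterol, read 12.70 and 12.73 against 14.69 and 14.76 (-2.01 ± 0.22, adjusted p = 6.18e-05), 4.02-fold. The desaturase genes *ERG3* (-1.42) and *ERG5* (-1.21), the isomerase gene *ERG2* (-1.16) and the final reductase gene *ERG4* (-0.76) followed.

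Of the 9 genes outside synthesis, 6 were higher in S288c, 2 were lower (*ARE2* and *KES1*) and *UPC2* did not pass. *AUS1* read 12.04 and 12.14 in S288c and 9.32 and 9.56 in Σ1278b, a difference of 2.65 ± 0.20 (adjusted p = 5.88e-06), 6.26-fold higher. *PDR11*, the other importer gene, read 8.05 and 8.08 against 7.30 and 7.24, and its difference of 0.80 ± 0.22 (adjusted p = 0.0112) did not pass when each condition had its own variance (adjusted p = 0.103). *SUT1*, whose product promotes sterol uptake, read 10.36 and 10.42 against 8.54 and 7.77 (2.24 ± 0.25, adjusted p = 6.14e-05). *AUS1* and *SUT1* thus lay higher on both S288c arrays than on both Σ1278b arrays, as did 42.7% of all probe sets. The spread between the Σ1278b arrays of *SUT1* was the widest of the sterol genes in that condition.

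The paired genes behaved unequally between the strains. *ECM22* was higher in S288c at 10.53 and 10.54 against 9.21 and 9.39 (1.24 ± 0.13, adjusted p = 4.43e-05), whereas *UPC2* read 8.43 and 8.46 against 8.37 and 7.95 (0.29, 95% interval -0.18 to 0.76). *ARE2*, encoding the main sterol acyltransferase of aerobic cells, had the widest difference of the 34 genes, with 4.65 and 5.42 in S288c and 10.30 and 10.88 in Σ1278b (-5.56 ± 0.24, adjusted p = 1.23e-07). Its size is uncertain, since 1 S288c array lay below log2 5 and the difference ran from -7.20 after quantile normalization to -4.03 between the 2μ-*MSS11* arrays, with the test passed in all 15 other settings. *ARE1*, encoding the other acyltransferase, lay 0.63 ± 0.22 higher in S288c (adjusted p = 0.0322), and this call was lost in 7 of 15 other settings. Of the oxysterol-binding protein genes, *KES1* was lower (-0.61, adjusted p = 0.00536) and *HES1* higher (0.94, adjusted p = 0.000294). *HES1* read between 2.08 and 3.46 on all 16 arrays, at the dim end of the scale, and its difference fell to 0.14 after quantile normalization.

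**Figure D2:**
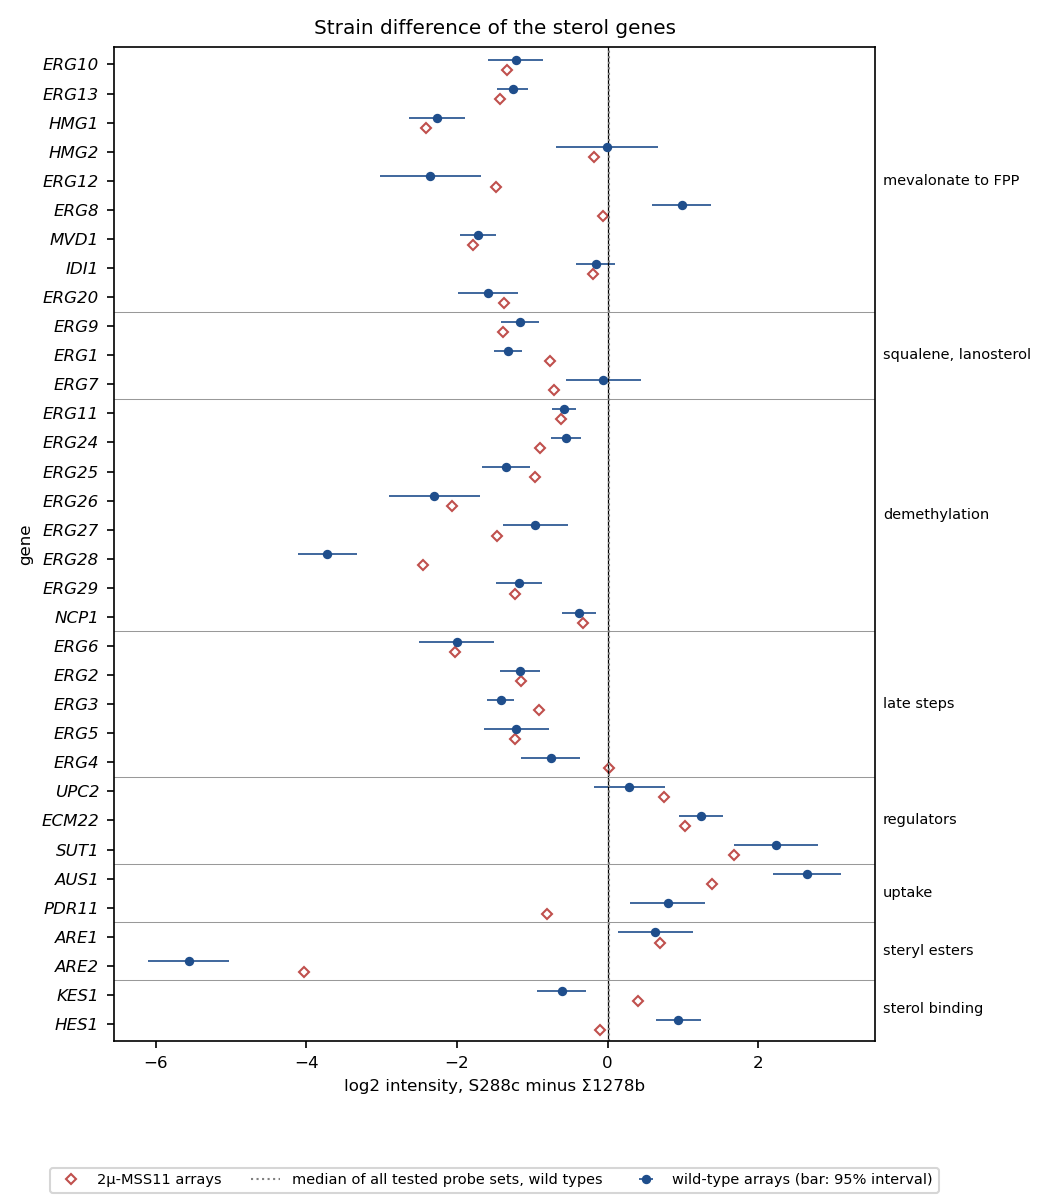
Strain difference in log2 intensity (S288c minus Σ1278b, horizontal axis) of each sterol gene, ordered by role. Filled points with 95% intervals are the wild types and open diamonds the 2μ-*MSS11* arrays. The dotted line marks the median of all tested probe sets. Synthesis genes lie left of 0 with *HMG2*, *IDI1* and *ERG7* near it and *ERG8* to the right in the wild types, and *ARE2* lies farthest left in both.

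The strain difference was also read between the means of the 2μ-*MSS11* arrays, which do not enter the difference between the wild types. Both tests use the same pooled spread for each probe set, so their calls are not independent. Between the 2μ-*MSS11* arrays 23 sterol genes were lower in S288c and 6 higher, against 17.6% lower and 27.9% higher of all tested probe sets. Of the 23 genes lower between the wild types, 21 were also lower between the 2μ-*MSS11* arrays (91.3% of either list of 23), compared with 711 of the 1544 lower probe sets overall (46%). Of the 7 genes higher between the wild types, 4 were higher again (57.1%), compared with 61.8% of all higher probe sets. The largest differences were those of *ARE2* (-4.03), *ERG28* (-2.45), *HMG1* (-2.41), *ERG26* (-2.07) and *ERG6* (-2.02). With a variance for each condition, which takes in the wide spread of the S288c 2μ-*MSS11* arrays, 13 sterol genes passed, all lower in S288c, against 3.71% of all probe sets (2.47% higher and 1.24% lower). *PDR11* (-0.80, adjusted p = 0.0145) and *KES1* (0.41, adjusted p = 0.0451) had the opposite direction between these arrays, and *ERG8* (-0.06) and *ERG4* (0.02) did not differ measurably.

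Several other measures moved with the strain. Among the 1008 probe sets with a mean log2 intensity of 12 or more in the wild types, the median difference was -0.29 and 66% lay below 0, whereas the 20 sterol genes in that range had a median of -1.19 and 19 lay below 0. Of 14 genes that mark cells past glucose exhaustion, 7 were higher and 1 lower in S288c, and their summed intensity was 69992 to 75892 in S288c and 13710 to 21501 in Σ1278b. The same sum was 85054 and 34066 in S288c 2μ-*MSS11* and 31172 and 23628 in Σ1278b 2μ-*MSS11*. All 7 **a**-specific genes and 3 of 4 α-specific genes were higher in S288c. No marker was at the floor of 1 set in processing, but signals of most **a**-specific genes were dim in Σ1278b. On each array of its wild type 1 of the 7 reached log2 5, against 7 in S288c wild type. The part of growth stage and cell type in the strain difference was not tested. In RNA of whole cultures, fewer cells of one kind and less RNA per cell cannot be told apart. Since S288c and Σ1278b also lie in different sets of arrays, strain and array set cannot be told apart, either in the wild types or in the 2μ-*MSS11* arrays, and whether the probes match both genomes equally was not tested. With wild type b in place of the Σ1278b wild type and each array centred on its median, 22 sterol genes were lower and 6 higher, against 68.6% of all probe sets (36.8% higher and 31.8% lower).

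Outside the 34 genes, the difference was mixed. Of 30 further genes of sterol homeostasis, 8 were lower and 11 higher in S288c (median 0.06). *CYB5*, encoding the cytochrome that donates electrons to sterol-modifying enzymes, was lower by 3.59 (-3.59 ± 0.17, adjusted p = 2.87e-07), as was *NPC2*, encoding a vacuolar sterol carrier (-2.00). *PDR18*, encoding an ABC transporter, read 7.44 and 7.18 in S288c and 2.03 and 2.04 in Σ1278b, a difference of 5.28. Its Σ1278b values lay at the dim end of the scale, so the size is uncertain. *PRY1*, encoding a sterol-binding secreted protein, was higher in S288c as well (2.07). Of 10 genes that use isoprenoids for other ends, 6 were higher and 2 lower, led by the farnesyltransferase gene *RAM1* (2.16). Of 7 regulators of the oxygen and heme response, *HAP1* (0.77) and *SPT23* (0.76) were higher and the corepressor genes *TUP1* (-1.62) and *CYC8* (-0.76) lower. Of 16 hypoxic genes outside the pathway, 3 were higher and 4 lower, with *OLE1*, encoding the oxygen-requiring fatty acid desaturase, at -3.48.

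With extra *MSS11* in Σ1278b, 1 sterol importer gene rose. Of the 25 synthesis genes 1 fell (4%), a share close to that of all probe sets (4.17%). Of the 34 genes, 1 rose (*PDR11*) and 2 fell (*KES1* and *ERG1*), against 1.05% risen and 4.17% fallen of all probe sets, 5.22% together. The median change was -0.02 for the sterol genes and -0.03 for all probe sets.

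*PDR11* read 7.30 and 7.24 in the wild type and 8.71 and 9.31 with 2μ-*MSS11*. Both treated arrays lay above both controls, as did 24.4% of all probe sets. The rise of 1.74 ± 0.22 (adjusted p = 0.00577, 3.34-fold) was past the test in 14 of 15 other settings and missed it in the fit of these 4 arrays alone (adjusted p = 0.165). *AUS1*, the partner importer gene, read 9.32 and 9.56 without and 9.60 and 9.84 with 2μ-*MSS11*, a change of 0.28 that did not pass (95% interval -0.17 to 0.73). *KES1*, encoding a sterol- and phosphoinositide-binding protein of the Golgi, read 11.71 and 11.75 in the wild type and 11.06 and 10.91 with 2μ-*MSS11* (-0.74 ± 0.15, adjusted p = 0.0225). Its treated arrays lay below both controls, as did those of 37.2% of all probe sets, and it lost the call in 6 of 15 other settings. *ERG1* read 14.43 and 14.53 against 14.14 and 14.09 (-0.37 ± 0.08, adjusted p = 0.0379), lost the call in 10 of 15 other settings, and was higher by 0.40 (adjusted p = 0.00386) when wild type b served as the control after centring. With a variance for each condition 3 genes passed, *PDR11*, *KES1* and *ERG4* (-0.46, adjusted p = 0.0255), against 1.78% risen and 6.95% fallen of all probe sets, 8.73% together. Against wild type b after centring, 21 sterol genes passed (18 higher), as did 46.7% of all probe sets (28.9% higher and 17.8% lower), and against all 4 wild-type arrays 11 passed (8 higher), as did 36.8% (21.9% higher and 15% lower).

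Of the 24 remaining synthesis genes none passed in Σ1278b (limma), with changes from -0.60 for *ERG12* to 0.18 for *ERG29*. An unadjusted p under 0.05 was found for 3 of the 25, against 1178 of all 5498 probe sets. The regulators lay between -0.13 and 0.11, and *ARE1* (-0.35) and *ARE2* (-0.67) did not pass. Among the 16 hypoxic genes, the cell wall mannoprotein genes *TIR2* (6.64) and *TIR3* (2.99) rose, and none of the 7 oxygen and heme regulators passed, 1 having an unadjusted p under 0.05. Of the 30 further homeostasis genes, *NSG1*, whose product guards Hmg2 against degradation (-0.74), and *NPC2* (-0.59) fell. Of the 14 glucose-exhaustion markers 4 rose, and their part in these changes was not tested.

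**Figure D3:**
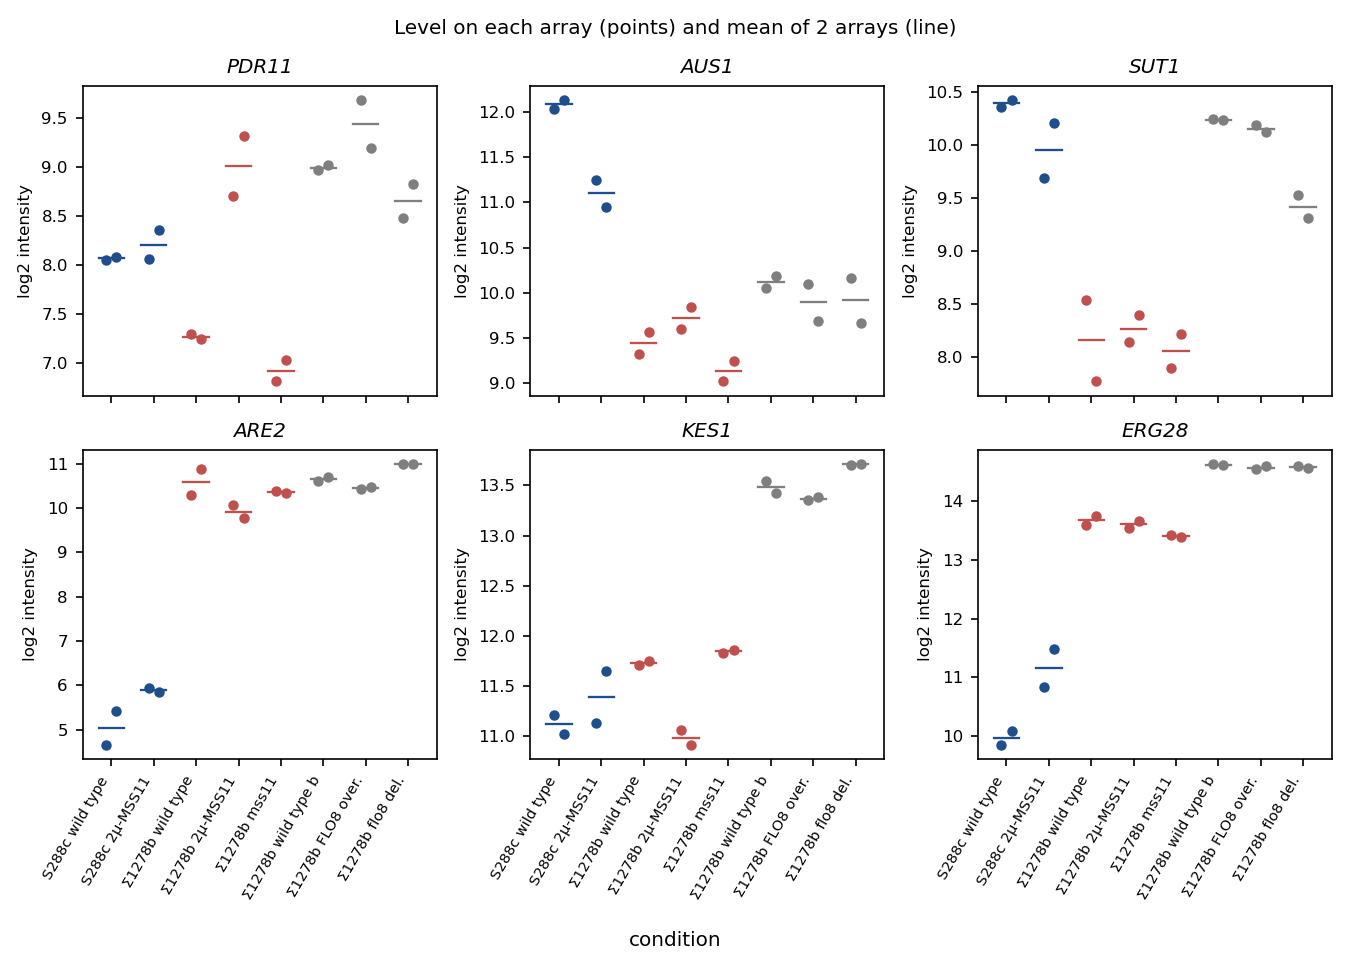
Log2 intensity (vertical axis, own scale per gene) of 6 sterol genes on every array (points) with the mean of the 2 arrays (line) in the 8 conditions. *PDR11* stands at 8.71 and 9.31 in Σ1278b 2μ-*MSS11* against 7.30 and 7.24 in its wild type, while *AUS1* is highest and *ARE2* and *ERG28* are lowest in S288c. Blue is S288c, red Σ1278b with its *MSS11* changes and grey the set with wild type b.

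With 2μ-*MSS11* in S288c, 3 sterol genes rose and 4 fell, a share close to that of all probe sets (16.9% called, 7.26% risen and 9.6% fallen). The median change was -0.01 in both. *ERG28* rose from 9.84 and 10.08 to 10.84 and 11.48 (1.2 ± 0.17, adjusted p = 0.00252), *ARE2* from 4.65 and 5.42 to 5.94 and 5.84 (0.86 ± 0.24, adjusted p = 0.039) and *ERG3* from 12.31 and 12.27 to 12.82 and 12.60 (0.42 ± 0.08, adjusted p = 0.00905). Each of these genes had its treated arrays above its controls, as did 21.8% of all probe sets. Each was also among those lower in S288c than in Σ1278b.

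*ERG8* fell from 13.90 and 14.02 to 13.16 and 12.45 (-1.16 ± 0.18, adjusted p = 0.00332), and *AUS1* from 12.04 and 12.14 to 11.25 and 10.95 (-0.99 ± 0.20, adjusted p = 0.0122). *HES1* fell from 3.46 and 2.99 to 2.32 and 2.36, near the dim end (-0.89 ± 0.13, adjusted p = 0.00324), and *ERG24* from 12.41 and 12.40 to 11.73 and 11.94 (-0.57 ± 0.09, adjusted p = 0.00366). Of these fallen genes, *ERG8*, *AUS1* and *HES1* were among those higher in S288c than in Σ1278b, and *ERG24* among those lower (-0.56). The arrays of these strain and *MSS11* comparisons are shared, so that this is a description of the same values.

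None of the 34 genes passed with a variance for each condition, against 0.4% of all probe sets, nor in the fit of these 4 arrays alone. With a variance for each condition 3 had an unadjusted p under 0.05, against 378 of all 5498 probe sets. Over 13 other settings the largest rise, of *ERG28*, ran from 0.88 to 1.52, and the largest fall, of *ERG8*, from -1.51 to -0.81. Leaving out replicate 1 or replicate 2 of S288c 2μ-*MSS11* left 1 array in that condition, so those fits cannot measure its spread. No conclusion is drawn from their counts. *HMG2* had the widest gap between these replicates, with 10.07 and 11.31. Of the 16 hypoxic genes 8 rose and 1 fell, led by *DAN1* (4.85), *TIR3* (4.47), *TIR2* (4.32) and *TIR1* (4.10), and *OLE1* rose by 1.91. *ROX1*, encoding the heme-dependent repressor of hypoxic genes, rose by 0.76, and *PDR18* fell by 2.84. The 7 **a**-specific markers were all below 0, 3 of them past the test, and 3 of the 14 glucose-exhaustion markers fell, and their part in these changes was not tested.

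The response to 2μ-*MSS11* was compared between the strains gene by gene. Of the 34 genes, 5 had a higher and 4 a lower response in S288c, against 15.9% of all probe sets (10.3% higher and 5.64% lower). Both importer genes were among the lower ones, *PDR11* (-1.60, 95% interval -2.30 to -0.90, adjusted p = 0.0123) and *AUS1* (-1.26, 95% interval -1.90 to -0.63, adjusted p = 0.0199). *PDR11* changed by 0.14 in S288c, from 8.05 and 8.08 to 8.06 and 8.35. *ARE2* (1.53), *ERG28* (1.28), *KES1* (1.02), *ERG1* (0.55) and *ERG3* (0.52) responded higher in S288c, and *ERG8* (-1.04) and *HES1* (-1.04) lower. With a variance for each condition none of the 34 passed (limma), against 0.127% of all probe sets. In that fit 4 had an unadjusted p under 0.05, against 672 of all 5498 probe sets. None passed in the fit of the 8 arrays alone.

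**Figure D4:**
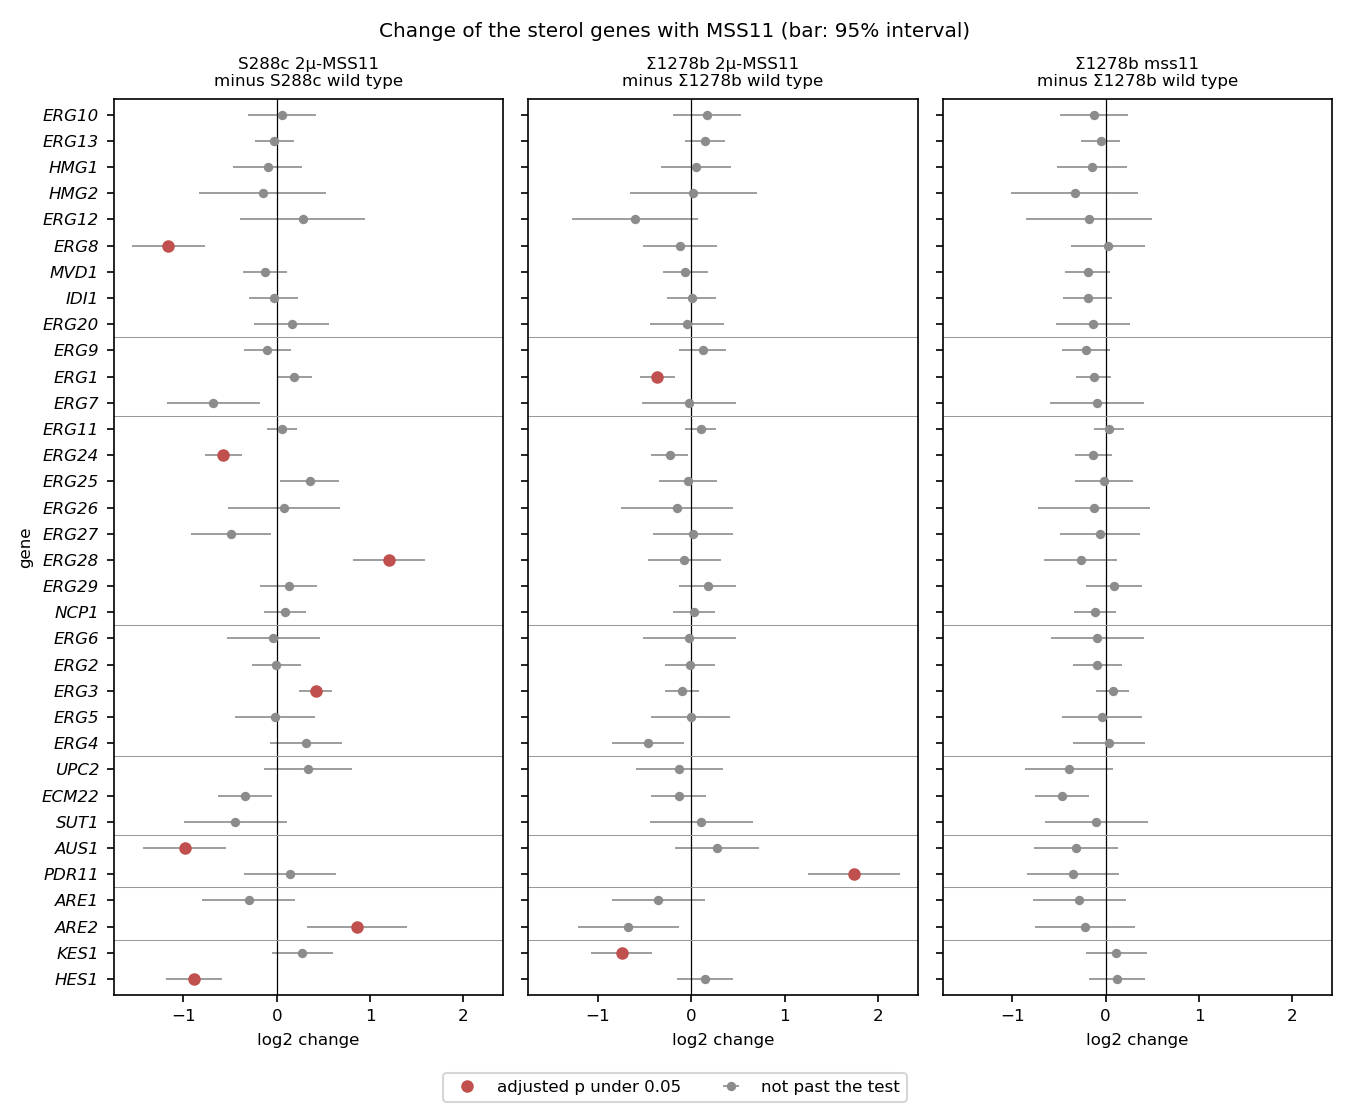
Change in log2 intensity (horizontal axis, with 95% interval) of each sterol gene with 2μ-*MSS11* in S288c (left) and Σ1278b (middle) and in *mss11* (right), each against the wild type of its set. Red points have an adjusted p under 0.05. These are 7 genes in S288c and 3 in Σ1278b, with *PDR11* at 1.74, and none in *mss11*.

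In *mss11* none of the 34 genes passed (limma) against 0.127% of all probe sets, nor with a variance for each condition, against 0.0909%. The unadjusted p was under 0.05 for 1 gene, against 152 of all 5498 probe sets. With a variance for each condition it was for 5 genes, against 258 of all probe sets. Changes lay between -0.46 and 0.12 with a median of -0.12 (-0.04 for all probe sets). Those below 0 numbered 27 of the 34, against 3384 of all 5498 probe sets. The lowest was that of *ECM22*, from 9.21 and 9.39 to 8.79 and 8.89 (-0.46, unadjusted p = 0.00535, adjusted p = 0.811). *PDR11* went from 7.30 and 7.24 to 6.81 and 7.03 (-0.35, adjusted p = 1), so its *mss11* arrays lay below and its 2μ-*MSS11* arrays above the same wild-type arrays. For 22 sterol genes both *mss11* arrays were below both controls, which held for 24.5% of all probe sets. Against wild type b after centring, 13 sterol genes passed (11 higher), as did 26% of all probe sets (20.1% higher and 5.89% lower), and against all 4 wild-type arrays 5 passed, all higher, as did 10.9% (9.57% higher and 1.38% lower). None of the 16 hypoxic genes passed, although 3 had an unadjusted p under 0.05 and 15 lay below 0.

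No sterol gene passed in the arrays titled *FLO8* overexpressed against wild type b (limma), where 0.0546% of all probe sets passed. None had an unadjusted p under 0.05, against 80 of all 5498 probe sets. Changes were between -0.22 and 0.45, the highest being *PDR11*, from 8.96 and 9.02 to 9.68 and 9.19 (adjusted p = 1). With a variance for each condition the count past the test was also 0, against 4.6% of all probe sets. In that fit 4 genes had an unadjusted p under 0.05, against 1118 of all 5498 probe sets.

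None passed in the arrays titled *flo8* deleted either, against 0.4% of all probe sets. The unadjusted p was under 0.05 for *SUT1*, which read 10.24 and 10.23 in wild type b and 9.52 and 9.31 in these arrays (-0.82 ± 0.25, unadjusted p = 0.00817, adjusted p = 0.405). With a variance for each condition 6 genes passed, *SUT1* (adjusted p = 0.0012), *MVD1* and *ARE1* as lower and *ERG3*, *ERG4* and *KES1* as higher, against 15.8% of all probe sets (6.44% higher and 9.39% lower). *FLO11*, the adhesin gene that depends on Flo8, read 6.25 and 5.34 against 13.93 and 14.24 in wild type b, and *TIR3* was lower as well (-3.72, adjusted p = 0.044).

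Wild type b was brighter than the Σ1278b wild type in 80% of all probe sets and dimmer in 2.89% (82.9% called), with a median difference of 1.21, and in 32 of the 34 sterol genes, with a median of 0.95. After each array was centred on its median, 0 sterol genes were higher and 16 lower (limma), with 6.6% higher and 19.9% lower of all probe sets, so that the direction depended on the scaling. *SUT1* (2.08), *KES1* (1.76), *PDR11* (1.72) and *ERG12* (1.69) differed most on the intensities as deposited. *HES1* (-0.20) and *ARE2* did not pass, *ARE2* with 10.30 and 10.88 in the wild type and 10.61 and 10.70 in wild type b (0.06, adjusted p = 0.82).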

How the data were processed

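Gene expression was measured on 16 GeneChip Yeast Genome arrays, 2 per condition. The authors scanned with GCOS 1.4 and deposited linear intensity values after background correction and normalization. For that step RMA is named in the methods and GCRMA in the submitters' notes, without versions, and whether the 3 sets of arrays (lowest intensities near 3.36, 3.55 and 3.11) were normalized together is not stated. The study's methods give other numbers of replicates and another growth phase than the labels, which were followed here.

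A floor of 1, which no value reached, was set before log2 was taken. The 5498 of 10928 probe sets annotated to *S. cerevisiae* genes entered limma 3.58.1 (R 4.3.3), fitting one mean for each condition across the 16 arrays. Variances were moderated by empirical Bayes (8 degrees of freedom from the residuals and 1.50 from the prior), and p-values were adjusted by Benjamini-Hochberg with a threshold of 0.05. SE and 95% intervals come from this fit. No probe set of the 34 genes carries a suffix for shared probes.

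The sterol genes and all lists were chosen with earlier results of these data known. Genes are named with each array's value where they passed in a comparison within a set of arrays or differed between responses, and list members by size of change. Between the wild types, the genes given with array values were chosen after their values were seen. *YSP1* was matched by its synonym *LAM1*. A planned motif search in promoters was not run, since no sequence was used here. Alternatives were all probe sets, a filter on dim ones (log2 5 on 2 arrays, leaving 5244), centring on array medians, quantile normalization, robust moderation, moderation with a trend on intensity, a variance per condition (limma's arrayWeights), a replicate block, only the arrays compared, other wild types, a log2 change of at least 1 and each array left out. The strain difference between 2μ-*MSS11* arrays (also with a variance per condition) and against wild type b, and a crossed replicate block, were added after the data were examined. The fit was tested on simulated data in which each probe set had the same spread in every condition. That simulation does not cover the wider spread of the S288c 2μ-*MSS11* arrays. With 2 arrays per condition precision is limited. In the main fit, p-values and SE rest on a spread between cultures that is pooled for each probe set over all 8 conditions. They do not measure the spread of the conditions compared, which was widest in S288c 2μ-*MSS11* (root mean square SD of the sterol genes 0.436).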

Additional observations from a re-analysis of the deposited data

Results flagged for a closer look

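For 9 sterol genes the change with 2μ-*MSS11* differed between the strains by the test of that difference (limma, adjusted over 5498 probe sets), as S288c minus Σ1278b on the log2 scale. Higher in S288c were *ARE2* (1.53), *ERG28* (1.28), *KES1* (1.02), *ERG1* (0.55) and *ERG3* (0.52). Lower in S288c were *PDR11* (-1.60), *AUS1* (-1.26), *ERG8* (-1.04) and *HES1* (-1.04). *PDR11* rose in Σ1278b, by 1.74, and changed by 0.14 in S288c, while *AUS1* changed by 0.28 and -0.99. *ERG28*, *ERG3*, *ARE2*, *ERG8*, *AUS1* and *HES1* passed the test in S288c alone, and *KES1* and *ERG1* in Σ1278b alone. The root mean square SD of the sterol genes between the arrays of S288c 2μ-*MSS11* was 0.436, and none of the 9 passed with a variance for each condition.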

How the results depend on the processing

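Counts of sterol genes past the test are given. Fits with 1 array left out keep 1 array in that condition and cannot measure its spread. Where their counts are given below, no conclusion is drawn from them. For S288c against Σ1278b the main fit gave 30 and other settings 27 to 30. A log2 change of at least 1 gave 20, and a variance per condition between the 2μ-*MSS11* arrays gave 13. For *ERG8* (-0.060), *ERG4* (0.023), *PDR11* (-0.80), *KES1* (0.41) and *HES1* (-0.10) the direction turned between the 2μ-*MSS11* arrays, and for *ERG11* against centred wild type b (0.043). For S288c 2μ-*MSS11* the 7 became 0 with a variance per condition and with only the arrays compared, 2 with a log2 change of at least 1, and 5 to 24 with 1 array left out. For Σ1278b 2μ-*MSS11* the 3 became 1 with quantile normalization, with the replicate block and with a log2 change of at least 1, and 0 with only the arrays compared. They became 21 against centred wild type b (18 higher) and 11 against all 4 wild-type arrays (8 higher), where *ERG1* turned to 0.40 and 0.036. For *mss11* the 0 became 13 and 5 against the same controls and stayed 0 under a crossed replicate block. The difference between responses gave 9, and 0 with a variance per condition and with only the arrays compared, and 3 to 22 with 1 array left out (3 without Σ1278b 2μ-*MSS11* replicate 2, 5 without S288c wild type replicate 2, 21 and 22 without S288c 2μ-*MSS11* replicates 1 and 2). The arrays titled *flo8* deleted gave 6 with a variance per condition. Wild type b against the wild type gave 32, and 5 lower with quantile normalization, 16 lower with median centring and 15 with a log2 change of at least 1. The cause was not tested.

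Replicate numbers pair no arrays by the labels. Deviations of same-numbered arrays correlated at -0.05 in S288c, 0.09 with 2μ-*MSS11* and -0.41 with *mss11* in Σ1278b, and 0.15 and 0.26 in the set with wild type b. The replicate block gave 6 in S288c, where *ARE2* lost its call, 8 for the difference between responses, and the same count in the other comparisons apart from Σ1278b 2μ-*MSS11*. Dim signal limits *HES1*, below log2 5 on all 16 arrays.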
